A study of Mus musculus with 4 samples.

Results

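The receptors by which natural killer (NK) cells recognize their targets, together with the adaptor proteins that carry the signal, were examined in J558 tumours from mice given a CDC7 inhibitor. The genes were taken by name: each symbol beginning with Klr, plus Ncr1, Cd226, Cd244, Cd96, Tyrobp and Hcst, which gave 42 of the 24421 genes in the count tables. J558 is a BALB/c plasmacytoma line, and the tumours were allografts grown under the skin of the right flank of immunocompetent female BALB/c mice. Mice of both groups were dosed by mouth for 6 days, with methylcellulose vehicle (Vehicle-1 and Vehicle-2) or with TAK-931, an inhibitor of the replication kinase CDC7, at 60 mg/kg once daily (TAK-931-1 and TAK-931-2). RNA of the whole tumour was sequenced at day 6 (n = 2 per group, described as independent samples), so tumour cells, immune cells and stroma were read together. The study describes its mice as 4 weeks of age, without saying at which step.

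NK cells weigh signals from inhibitory and activating receptors. Most Klr genes encode C-type lectin-like receptors of the NK gene complex: inhibitory members carry their own tyrosine motif that recruits phosphatases, whereas activating members pair with an adaptor, such as DAP12 (Tyrobp), DAP10 (Hcst) or, for the activating NKR-P1 receptors and NKp46, the Fc receptor gamma chain (Fcer1g). Many are shared with activated T cells, and Tyrobp is also abundant in macrophages, so few members besides Ncr1 come close to marking NK and related innate lymphoid cells alone.

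Promoter sequences are shown for 5 members that mark the main patterns below. Klra17 was the member with the highest level in the vehicle-treated tumours and was not higher in both treated tumours. Klra3, of the same family, was nearly silent in the vehicle-treated tumours. Klrc1 and Klrk1 lie close together on chromosome 6 but differed in their vehicle level, and Ncr1 is the NK cell marker. Each sequence runs from 250 bases before to 50 bases after the start of the gene (RefSeq, GRCm38.p6, 5′ to 3′ on the strand of the gene), and capitals mark the motifs named after them.
Klra17, chr6:129876623-129876922, minus strand: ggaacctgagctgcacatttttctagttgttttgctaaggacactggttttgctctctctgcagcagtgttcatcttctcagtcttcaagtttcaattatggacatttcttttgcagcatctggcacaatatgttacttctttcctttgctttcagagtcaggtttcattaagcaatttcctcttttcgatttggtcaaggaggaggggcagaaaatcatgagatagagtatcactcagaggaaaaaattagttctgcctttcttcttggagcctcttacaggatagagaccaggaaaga
Klra3, chr6:130337577-130337876, minus strand: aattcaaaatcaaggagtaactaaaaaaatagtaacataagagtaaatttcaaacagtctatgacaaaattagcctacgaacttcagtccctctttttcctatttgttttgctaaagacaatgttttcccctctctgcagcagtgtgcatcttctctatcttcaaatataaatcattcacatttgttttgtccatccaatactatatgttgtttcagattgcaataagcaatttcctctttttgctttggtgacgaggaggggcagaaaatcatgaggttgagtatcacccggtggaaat
Klrc1, chr6:129678924-129679223, minus strand: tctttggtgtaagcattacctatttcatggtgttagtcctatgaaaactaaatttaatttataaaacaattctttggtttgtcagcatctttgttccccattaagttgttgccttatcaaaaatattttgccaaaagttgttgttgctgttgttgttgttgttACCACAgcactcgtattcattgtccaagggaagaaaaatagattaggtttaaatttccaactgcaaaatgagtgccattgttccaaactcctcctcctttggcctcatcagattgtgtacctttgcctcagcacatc
Klrk1, chr6:129623815-129624114, minus strand: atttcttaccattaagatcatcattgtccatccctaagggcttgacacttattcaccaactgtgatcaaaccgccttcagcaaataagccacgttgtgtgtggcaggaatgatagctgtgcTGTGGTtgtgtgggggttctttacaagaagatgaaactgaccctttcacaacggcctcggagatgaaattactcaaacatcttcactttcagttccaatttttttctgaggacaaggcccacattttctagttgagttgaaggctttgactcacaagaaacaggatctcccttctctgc
Ncr1, chr7:4337474-4337773, plus strand: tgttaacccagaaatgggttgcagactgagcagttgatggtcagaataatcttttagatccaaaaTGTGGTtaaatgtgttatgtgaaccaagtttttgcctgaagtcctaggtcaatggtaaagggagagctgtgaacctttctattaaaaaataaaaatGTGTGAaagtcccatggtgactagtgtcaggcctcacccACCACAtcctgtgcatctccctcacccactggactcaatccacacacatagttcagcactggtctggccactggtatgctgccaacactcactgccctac

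The motifs searched on both strands were a T-box site (TCACAC), a RUNX site (TGTGGT) and an ETS core (AGGAAG), after factor families known from NK cells. They do not overlap one another in the sequences shown. Of the 27 members with a promoter entry, 4 held the T-box letters (14.8%, against 14.5% of 32851 promoters of the same length), 9 held the RUNX letters (33.3% against 16.8%) and 8 held the ETS letters (29.6% against 35.4%). The promoters of Klra17 and Klra3 held none of the 3, those of Klrc1 and Klrk1 held 1 RUNX match each, and that of Ncr1 held 2 RUNX matches and 1 T-box match. These matches are descriptions of letters and not of binding.

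The 4 libraries held between 16487902 and 19589339 counts. The vehicle-treated libraries were close (Pearson's r of 0.977 across the log2 levels of the tested genes) and the TAK-931-treated libraries were less so (r of 0.865). Levels are given as CPM, the count scaled by TMM to a common library total. Where no count was seen, as many as 3 remain possible, or 0.158 to 0.180 CPM by library, and this floor covers counting error only. Counts from 1 to 20 were odd in 17.9% to 23.9% of cases, so both mates of a pair appear to be counted, and the true counting error and floor are then larger than given. The label calls the cells B lymphocytes. Of the mature B cell markers reported here, Pax5 had 0 counts throughout, Cd79a and Cr2 had at most 1.58 CPM, Ms4a1 had between 13.3 and 52.7 CPM and Cd79b had between 74.0 and 208.9 CPM. The plasma cell gene Jchain had between 3136 and 8124 CPM.

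Of the 42 members, 27 had more than 3 counts in at least 1 library and are called detected here. By family, these were 7 of 20 Klra genes, 4 of 6 Klrb genes, all 3 Klrc genes, Klrd1, Klre1, both Klri genes, both Klrg genes, Klrk1, Ncr1, Cd226, Cd244, Cd96 and both adaptors. The other 15 were not detected above this floor. They were Klrb1, Klrb1-ps1 and Klra9, with at most 2 counts in any library, and Klra4, Klra6, Klra8, Klra12, Klra13-ps, Klra14-ps, Klra15, Klra18, Klra19, Klra21, Klra22 and Klra23, with 0 counts in all 4. For 11 of these 12, exons in the count tables overlapped those of another Klra gene, over 77.9% to 99.8% of their bases, where featureCounts by default gives a read to neither gene. The tables use a C57BL/6 genome, and the Klra cluster is known to differ in gene content between C57BL/6 and BALB/c. The zeros of these Klra genes therefore do not show that the receptors were absent.

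**Figure D1:**
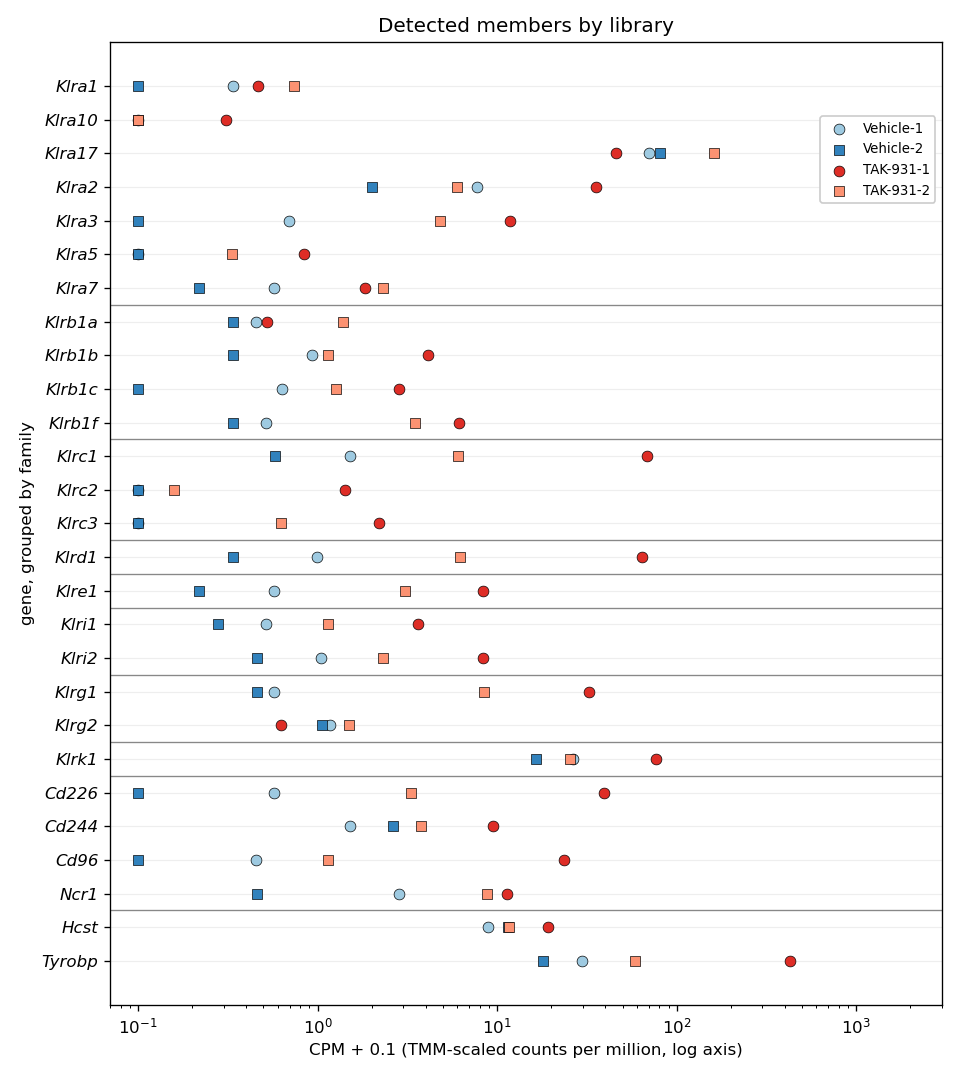
CPM + 0.1 of the 27 detected members in each library (log axis, 1 point per library, horizontal lines between families). TAK-931-1 is the rightmost point for most genes, whereas TAK-931-2 is rightmost for Klra1, Klra7, Klrb1a, Klrg2 and Klra17, the last at 160.5 CPM.

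Both TAK-931-treated tumours lay above both vehicle-treated tumours for 17 of the 21 members that passed the filter on low counts, and none lay below. Over all 13669 genes tested, 30.0% lay above and 32.7% below. Of the 21, 14 had under 10 counts in a vehicle library, and these could pass the filter largely through their treated libraries, so the count is a description and not support for a group change. Among the 7 with at least 10 counts in both vehicle libraries, 3 lay above without overlap (Cd244, Tyrobp and Hcst) and 4 overlapped (Klrg2, Klrk1, Klra17 and Klra2). With the edgeR quasi-likelihood test no member passed an adjusted p of 0.05 (lowest 0.275, also the lowest over all genes, where 0% passed). At an unadjusted p under 0.05, 12 members were higher and 0 lower, where 11.6% of all genes were higher and 6.55% lower. The same filter bears on that count: 1 of the 7 (Tyrobp) was among the 12, and the other 11 had under 10 counts in a vehicle library. DESeq2 called 10 members higher (background 9.21%), and of these Tyrobp alone had at least 10 counts in both vehicle libraries. After adjustment limma-voom called 0 members. At an unadjusted p under 0.05 it gave 6, all higher (background 5.72%). With the replicate number as a block, edgeR called 4 members higher (background 1.03%), although it is not known whether the numbers pair the libraries. All 4 had under 10 counts in a vehicle library. As above, such counts of calls are a description and not support for a group change. In bulk tumours, fewer cells of a type and less RNA per cell cannot be told apart.

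The CD94/NKG2 receptors, which read the non-classical MHC molecule Qa-1, were among the members with the largest differences. Klrd1 (CD94, the shared subunit) had 0.889 and 0.240 CPM in the vehicle-treated tumours and 63.9 and 6.13 CPM in the TAK-931-treated tumours. Klrc1 (NKG2A, the inhibitory partner) had 1.42 and 0.480 CPM against 68.2 and 5.95 CPM. Both genes were low in both vehicle tumours and higher in both treated tumours, with TAK-931-1 over 10 times TAK-931-2 (10.4-fold for Klrd1 and 11.5-fold for Klrc1). The log2 fold changes were 5.94 (SE 1.52, unadjusted p = 0.0151, edgeR) and 5.27 (SE 1.48, unadjusted p = 0.0205, edgeR), and DESeq2 called both. Without TAK-931-1 they were 3.42 and 2.63.

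The other NKG2 partners were scarce. Klrc3 (NKG2E) had 0 counts in both vehicle tumours, 40 in TAK-931-1 and 9 in TAK-931-2. Klrc2 (NKG2C, an activating partner) had 0, 0, 25 and 1. Both were seen in the treated tumours alone, with Klrc2 in TAK-931-2 at a single count. No fold is given, since the counting floor is itself uncertain. Both were under the filter and were not tested.

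Klrk1 encodes NKG2D, the activating receptor for stress-induced ligands, and lies next to the Klrc genes. It had 26.3 and 16.4 CPM in the vehicle-treated tumours and 76.9 and 25.2 CPM in the TAK-931-treated tumours. Unlike its Klrc neighbours it was well above the floor in every library, and TAK-931-2 lay between the vehicle tumours. The log2 fold change was 1.26 (SE 0.63, unadjusted p = 0.111, edgeR). It was 0.24 without TAK-931-1 and 1.86 without TAK-931-2. The overlap depended on the scaling: by library size alone, both treated tumours lay above both vehicle tumours.

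The adaptors differed from each other. Tyrobp (DAP12, with an activating tyrosine motif) had 29.6 and 17.8 CPM in the vehicle-treated tumours and 424.8 and 58.2 CPM in the TAK-931-treated tumours. Hcst (DAP10, which couples NKG2D to PI3-kinase) had 8.78 and 11.4 CPM against 19.2 and 11.6 CPM. Tyrobp was higher in both treated tumours, by 17.9-fold and 2.46-fold of the vehicle mean, while Hcst in TAK-931-2 was only just above Vehicle-2. The log2 fold changes were 3.35 (SE 1.06, unadjusted p = 0.0304, edgeR) and 0.61 (SE 0.43, unadjusted p = 0.230, edgeR). Without TAK-931-1 they were 1.30 for Tyrobp and 0.20 for Hcst. The marker genes of monocytes and macrophages, cells that use DAP12, had a summed level of 644 and 542 CPM in the vehicle tumours and 9404 and 1680 CPM in the treated tumours, and 10 of 11 of them lay above without overlap (30.0% of all genes tested did). Cd14, the other one, had 3.08 and 6.35 CPM against 31.1 and 2.57 CPM. Lyz2 went from 158.5 and 139.6 CPM to 2742 and 389 CPM, Cd68 from 42.7 and 39.9 CPM to 431 and 121 CPM and Fcgr1 from 17.8 and 10.7 CPM to 237 and 47.8 CPM. Their part in the Tyrobp difference was not tested.

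Klrg1, an inhibitory receptor for cadherins that marks mature NK cells and effector T cells, had the lowest unadjusted p of all members. It had 0.474 and 0.360 CPM in the vehicle-treated tumours and 32.2 and 8.40 CPM in the TAK-931-treated tumours. Both treated tumours were high, and the smaller gave 20.1-fold the vehicle mean, the largest fold in TAK-931-2 of any tested member. The log2 fold change was 5.58 (SE 0.93, unadjusted p = 0.00307, edgeR), and DESeq2 called it. It was 4.31 without TAK-931-1. Klrg2, its relative, had 18 and 16 counts against 10 and 24, so the groups overlapped (log2 fold change -0.08, SE 0.81), and the sign turned when Vehicle-1 or TAK-931-1 was left out.

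The Klrb genes encode the NKR-P1 receptors, which bind Clr lectins. Klrb1f, an activating member, had 7 and 4 counts in the vehicle-treated tumours and 115 and 58 in the TAK-931-treated tumours. Klrb1b, the inhibitory member, had 14 and 4 counts against 76 and 18. Klrb1c, whose C57BL/6 product is the NK1.1 antigen, had 9 and 0 counts against 52 and 20. All 3 were higher in both treated tumours, and Klrb1f was the closest between them, with a TAK-931-1 to TAK-931-2 ratio of 1.79. The log2 fold changes were 3.82 (SE 0.76, unadjusted p = 0.00566, edgeR) for Klrb1f, 2.23 (SE 1.09, unadjusted p = 0.106, edgeR) for Klrb1b and 2.84 (SE 1.55, unadjusted p = 0.135, edgeR) for Klrb1c, and DESeq2 called Klrb1f alone of them. Without Vehicle-1, that of Klrb1c was 8.12, fitted against a lone library at 0 counts. The log2 fold change of Klrb1b ranged from 0.96 without TAK-931-1 to 3.38 without Vehicle-1. Klrb1a had 6, 4, 8 and 22 counts in the same library order and was not tested.

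Klre1 and the Klri genes form one receptor: KLRE1 pairs with KLRI1 in an inhibitory form or with KLRI2 in an activating form. Klre1 had 8 and 2 counts in the vehicle-treated tumours and 157 and 51 in the TAK-931-treated tumours. Klri1 had 7 and 3 against 67 and 18, and Klri2 had 16 and 6 against 156 and 38. The 3 subunits were each higher in both treated tumours, with TAK-931-1 at 2.78, 3.36 and 3.71 times TAK-931-2. The log2 fold changes were 4.21 (SE 1.05, unadjusted p = 0.0138, edgeR) for Klre1, 2.92 (SE 1.02, unadjusted p = 0.0415, edgeR) for Klri1 and 2.98 (SE 1.01, unadjusted p = 0.0380, edgeR) for Klri2. DESeq2 called Klre1 and Klri2. Without TAK-931-1 the log2 fold changes were 3.29, 1.79 and 1.75 for Klre1, Klri1 and Klri2.

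**Figure D2:**
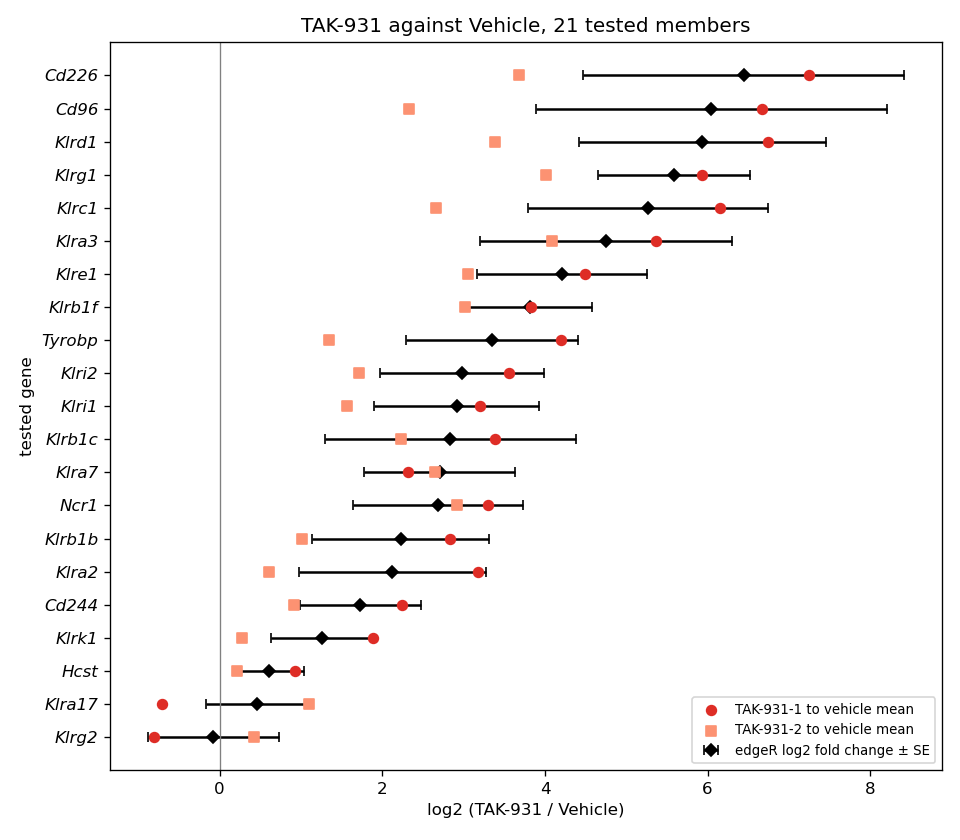
Log2 fold change of the 21 tested members, TAK-931 over Vehicle (diamonds with bars, edgeR estimate ± SE, n = 2 per group), with the log2 ratio of each TAK-931 library to the vehicle mean. Klra17 and Klrg2 are the genes whose TAK-931-1 and TAK-931-2 points fall on opposite sides of 0.

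The Klra genes encode the Ly49 receptors, most of which read classical MHC class I. The family total was 79.1 and 82.4 CPM in the vehicle-treated tumours and 96.4 and 174.3 CPM in the TAK-931-treated tumours. Klra17 made up most of it except in TAK-931-1, where Klra2 added 35.6 CPM and Klra3 11.6 CPM. Klra17 encodes Ly49Q, an inhibitory member best known from plasmacytoid dendritic and myeloid cells. Its level was 70.2 CPM in Vehicle-1 and 80.4 CPM in Vehicle-2, whereas TAK-931-1 had 46.0 CPM and TAK-931-2 had 160.5 CPM. The treated tumours lay on either side of the vehicle tumours, and the log2 fold change was 0.46 (SE 0.63, unadjusted p = 0.507, edgeR). It was -0.69 without TAK-931-2 and 1.09 without TAK-931-1, so its direction was set by the choice of the treated library.

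Klra17 was thus the inverse of most members between the treated tumours, with a TAK-931-1 to TAK-931-2 ratio of 0.287. The 8 genes of a plasma cell and J558 list all had such a ratio below 1, from 0.178 to 0.411. Of these, Irf4, Jchain, Prdm1, Tnfrsf17 and Trap1a lay, like Klra17, below the vehicle tumours in TAK-931-1 and above them in TAK-931-2. Irf4 had 737 and 762 CPM in the vehicle tumours against 298 and 1671 CPM in the treated tumours. Sdc1, Xbp1 and Mzb1 lay below in both (32.7% of all genes tested did). Sdc1 had 696 and 692 CPM against 241 and 588 CPM, and Xbp1 had 1059 and 1059 against 377 and 972. Trap1a, a tumour-associated gene of this list, had 1127 and 1095 CPM in the vehicle tumours and 356 and 1235 CPM in the treated tumours (ratio 0.288). The plasmacytoid dendritic cell list, which was added after the values of Klra17 were seen, summed to 78.1, 71.8, 76.3 and 77.6 CPM in Vehicle-1, Vehicle-2, TAK-931-1 and TAK-931-2. Its members went different ways: Siglech had 1.66, 0.959, 5.16 and 2.10 CPM in that order, Cox6a2 had 49.9, 42.7, 17.3 and 24.7 CPM, and Pacsin1 had 12.3, 17.7, 12.4 and 28.2 CPM. Tlr9 had 13.3, 10.4, 36.2 and 20.6 CPM and Ccr9 had at most 5.16 CPM. Pacsin1, like Klra17, was highest in TAK-931-2 (ratio 0.440), whereas Siglech and Tlr9 were highest in TAK-931-1. Which cells carried the Klra17 counts was not tested.

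The other tested Klra genes were Klra3, Klra7 and Klra2. Klra3 (Ly49C) had 10 and 0 counts in the vehicle-treated tumours and 221 and 81 in the TAK-931-treated tumours. Klra7 (Ly49G) had 8 and 2 against 33 and 38. Klra2 (Ly49B, a member found on myeloid cells) had 128 and 32 against 675 and 101. Klra3 and Klra7 were higher in both treated tumours, and the treated tumours were close for Klra7 (ratio 0.784), whereas for Klra2 the count in TAK-931-2 lay between the vehicle tumours. The log2 fold changes were 4.75 (SE 1.55, unadjusted p = 0.0339, edgeR) for Klra3, 2.70 (SE 0.93, unadjusted p = 0.0392, edgeR) for Klra7 and 2.12 (SE 1.15, unadjusted p = 0.133, edgeR) for Klra2, and DESeq2 called Klra3 alone of them. Klra3 had 0 counts in Vehicle-2, and leaving out Vehicle-1 gave it a fitted value of 10.18 on the log2 scale, which is no measure of size. The log2 fold change of Klra2 ranged from 0.31 without TAK-931-1 to 3.45 without Vehicle-1. Reads that fit several Ly49 genes equally were not counted, so the levels of these genes are uncertain.

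The remaining Klra genes were near the floor. Klra5 (Ly49E) had 0, 0, 14 and 4 counts in Vehicle-1, Vehicle-2, TAK-931-1 and TAK-931-2. Klra1 had 4, 0, 7 and 11 counts and Klra10 had 0, 0, 4 and 0. None of these was tested.

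**Figure D3:**
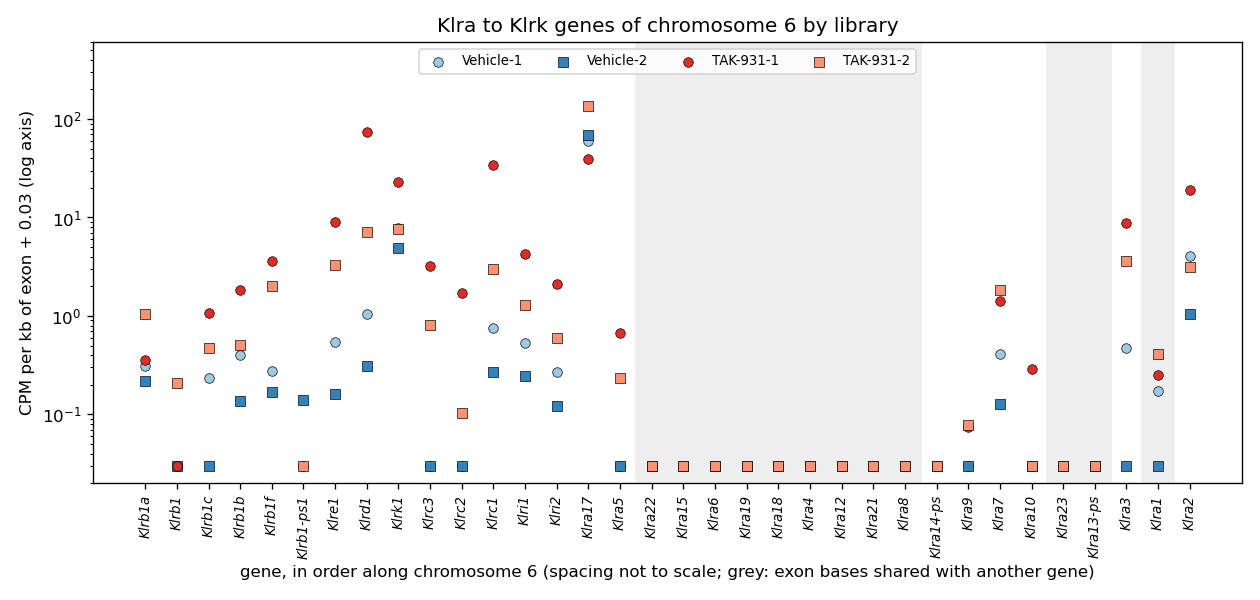
CPM per kb of exon (+ 0.03, log axis) of the Klra to Klrk genes of chromosome 6 in each library, in their order along the chromosome with spacing not to scale. Grey columns are genes whose exons overlap another gene, among which Klra1 is the one with counts, and Klra17 stands above the adjoining genes in all 4 libraries.

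Among the receptors of other families, Ncr1 (NKp46) is the marker closest to specific for NK cells. It had 2.73 and 0.360 CPM in the vehicle-treated tumours and 11.3 and 8.69 CPM in the TAK-931-treated tumours. Both treated tumours were higher and close to each other (ratio 1.30), whereas the vehicle tumours differed more, with 46 counts in Vehicle-1 and 6 in Vehicle-2. The log2 fold change was 2.69 (SE 1.05, unadjusted p = 0.0578, edgeR). It was 4.79 without Vehicle-1 and 1.87 without Vehicle-2.

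Cd226 (DNAM-1, activating) and Cd96 compete for the same poliovirus-receptor ligand. Cd226 had 8 and 0 counts in the vehicle-treated tumours and 749 and 55 in the TAK-931-treated tumours, and Cd96 had 6 and 0 against 445 and 18. Both were near or under the floor in the vehicle tumours and highest in TAK-931-1, at 12.3 and 22.3 times TAK-931-2. The log2 fold changes were 6.45 (SE 1.97, unadjusted p = 0.0275, edgeR) for Cd226 and 6.05 (SE 2.16, unadjusted p = 0.0447, edgeR) for Cd96, the largest of the tested members. Without TAK-931-1 they were 3.71 and 2.51 (unadjusted p = 0.0154 and 0.152, edgeR), so their size rested on that tumour. Without Vehicle-1 they were 11.56 and 10.75, fitted against a single library at 0, and these are no measure of size. Cd244 (2B4, the receptor for CD48) had 1.42 and 2.52 CPM in the vehicle-treated tumours and 9.43 and 3.68 CPM in the TAK-931-treated tumours. It was higher in both treated tumours by a smaller margin, with a log2 fold change of 1.73 (SE 0.74, unadjusted p = 0.0746, edgeR). That value was 0.90 without TAK-931-1.

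Per kb of exon, the leading members came in the same order in 3 of the 4 libraries, and TAK-931-1 differed. In Vehicle-1, Klra17 was highest at 59.7 CPM per kb, followed by Tyrobp at 52.3, Hcst at 19.9, Klrk1 at 7.87 and Klra2 at 4.02. In Vehicle-2, Klra17 had 68.3 CPM per kb, Tyrobp 31.5, Hcst 25.9 and Klrk1 4.91. These 4 genes led in that order in both vehicle tumours. In TAK-931-1, Tyrobp was highest at 750.5 CPM per kb, followed by Klrd1 at 73.8, Hcst at 43.4, Klra17 at 39.1 and Klrc1 at 34.4. In TAK-931-2, Klra17 was highest at 136.4, then Tyrobp at 102.9, Hcst at 26.3, Klrk1 at 7.54 and Klrd1 at 7.07. Ncr1 had between 0.246 and 7.71 CPM per kb across the libraries. In the vehicle tumours the ranges of Klra17, Tyrobp, Hcst and Klrk1 did not overlap one another. In the TAK-931-treated tumours each of the leading members (Tyrobp, Klra17, Klrd1, Hcst, Klrc1 and Klrk1, by mean level per kb) overlapped the next in that order.

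Ligands of these receptors were listed by hand. None passed an adjusted p of 0.05 in edgeR, and DESeq2 called B2m (adjusted p = 0.0136) and H2-K1 (adjusted p = 0.0267). Of the 4 tested MHC class I genes, all 4 lay above without overlap (30.0% of all genes) and 2 were higher at an unadjusted p under 0.05 (11.6% of all genes). H2-D1, 1 of the 4, shares 61.1% of its exon bases with H2-L, so its count is uncertain. B2m, the light chain, had 1036 and 967 CPM in the vehicle tumours and 4867 and 1833 CPM in the treated tumours, and H2-K1 had 724 and 669 against 2650 and 1175. H2-T23, the Qa-1 ligand of CD94/NKG2, had 206 and 194 CPM against 706 and 275 CPM (unadjusted p = 0.0607, edgeR). Of 9 NKG2D ligands listed, 8 were in the tables, and 5 of these 8 had 0 counts. Of these 5, the 4 Raet1 genes share 70.5% to 100% of their exon bases with other Raet1 genes, so their zeros do not show absence, as for Klra. Only Ulbp1 was tested, with 10.2 and 10.8 CPM against 15.3 and 27.9 CPM (unadjusted p = 0.0663, edgeR). H60b, which was under the filter, had 0 and 4 counts in the vehicle tumours and 62 and 7 in the treated tumours. Of the Clr ligands of NKR-P1, 4 were tested and 0 had an unadjusted p under 0.05, with Clec2d, the ligand of the inhibitory Klrb1b product, at 30.8 and 37.7 CPM against 144.3 and 50.1 CPM and Clec2g at 0.119 and 0 CPM against 0.790 and 0.583 CPM. Of the 7 nectin, cadherin and CD48 ligands, 4 lay above without overlap, 3 overlapped and 0 had an unadjusted p under 0.05. Pvr, the poliovirus receptor bound by the Cd226 and Cd96 products, had 19.9 and 21.8 CPM against 18.4 and 21.3 CPM (log2 fold change -0.07). Pvrl2 and Pvrl3 also overlapped. Cd48 had 40.7 and 32.2 CPM against 116.1 and 49.7 CPM, and Cdh1 had 0.830 and 0.839 CPM against 1.37 and 6.48 CPM.

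Further lists of the pathway were read at an unadjusted p under 0.05 in edgeR, which 11.6% of all genes passed as higher and 6.55% as lower, and none of their genes passed after adjustment in edgeR. As for the members, genes with under 10 counts in a vehicle library could pass the filter largely through the treated libraries, and their number is given. DESeq2 called 10 genes of ITAM and SAP-family signalling, 0 phosphatases, 8 transcription factors and 7 other NK genes, all higher (background 9.21%). Of 18 tested genes of ITAM and SAP-family signalling, 12 were higher, 3 of them with such low counts, and 0 were lower. Fcer1g had 32.0 and 19.1 CPM in the vehicle tumours and 593 and 92.3 CPM in the treated tumours (unadjusted p = 0.0190, edgeR). Lcp2 (SLP-76, a scaffold of ITAM signalling) had 13.9 and 9.71 CPM in the vehicle tumours and 255 and 57.3 CPM in the treated tumours, and Fyn had 104.6 and 100.2 CPM against 214 and 200.5 CPM. Plcg2, a phospholipase that B-lineage cells also use, lay below without overlap but missed that level (unadjusted p = 0.248, edgeR), with 513 and 463 CPM against 154 and 434 CPM. The 3 phosphatases that inhibitory receptors recruit went different ways. Ptpn6 (SHP-1) had 277 and 291 CPM against 449 and 446 CPM (unadjusted p = 0.0364, edgeR), with the treated tumours nearly equal, and Inpp5d (SHIP-1) had 186 and 180 CPM against 251 and 244 CPM (unadjusted p = 0.107, edgeR). Ptpn11 (SHP-2) lay below without overlap, with 130.1 and 121.3 CPM against 110.0 and 113.4 CPM (unadjusted p = 0.445, edgeR). Of 10 transcription factors of NK cells, 9 were higher at that level, 2 of them (Tbx21 and Gata3) with under 10 counts in a vehicle library. Eomes was at 1.48 and 0.779 CPM against 69.5 and 11.0 CPM, and Tbx21 at 0.237 and 0.120 CPM against 44.5 and 4.84 CPM. Ets1 had 42.5 and 49.8 CPM against 274 and 70.7 CPM. Of 12 other NK and innate lymphoid genes, 7 were higher at that level, 1 of them (Txk) with under 10 counts in a vehicle library, and 0 were lower. Il2rb was at 6.23 and 1.20 CPM against 261 and 45.0 CPM, and Gzma at 12.5 and 6.89 CPM against 113.5 and 37.2 CPM. Itga1, an integrin of tissue-resident cells, lay below without overlap, with 73.6 and 76.0 CPM against 63.5 and 64.1 CPM (unadjusted p = 0.299, edgeR).

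The difference between the treated tumours was set beside marker genes of other cells. TAK-931-1 exceeded TAK-931-2 in 18 of the 21 tested members, with a median ratio of 3.05 and a range from 0.287 to 22.3. The median ratio was 5.38 for other NK and innate lymphoid genes, 12.8 for T cell markers, 5.70 for monocyte and macrophage markers and 0.376 for plasma cell and J558 markers, against 1.01 over all genes tested. Cd226, Klrc1 and Klrd1 had ratios of 12.3, 11.5 and 10.4, Klrg1 and Klrk1 had 3.84 and 3.05, and Ncr1 and Klra7 had 1.30 and 0.784. The T cell markers summed to 123 and 132 CPM in the vehicle tumours and 1708 and 223 CPM in the treated tumours, and 10 of 11 lay above without overlap (30.0% of all genes), 5 of them with under 10 counts in a vehicle library. Cd6 overlapped. Cd27 had 1.01 and 0.300 CPM against 63.5 and 4.96 CPM, and Thy1 had 38.1 and 54.9 CPM against 515 and 77.9 CPM. Cd28 differed from these in that the treated tumours were close, with 37.5 and 38.2 CPM against 70.6 and 66.3 CPM (ratio 1.06). The part of T cells and macrophages in the members' differences was not tested.

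**Figure D4:**
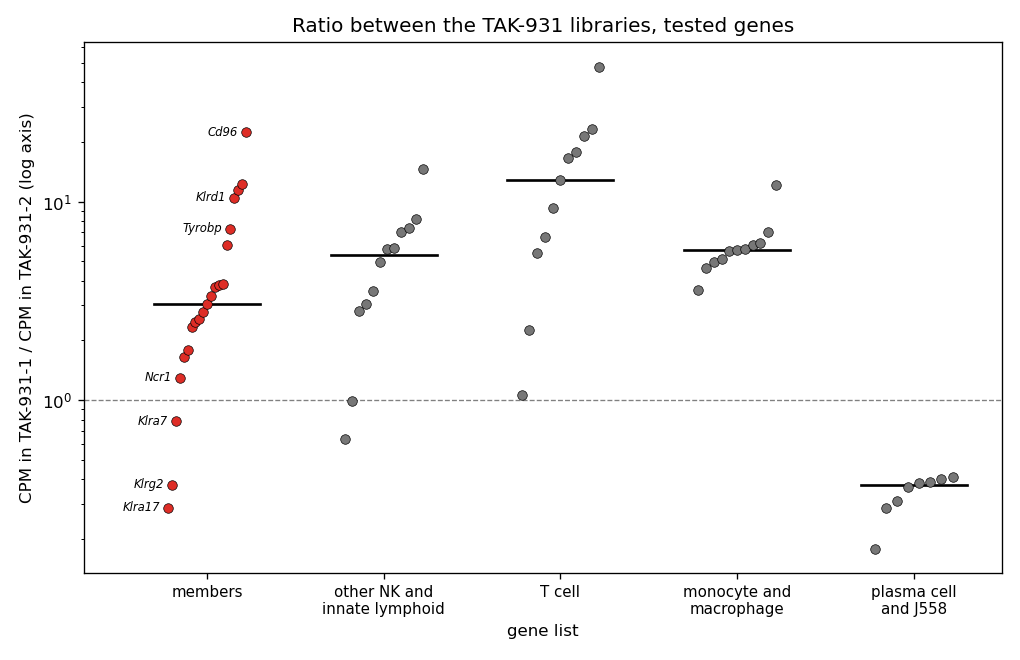
CPM in TAK-931-1 divided by CPM in TAK-931-2 (log axis) for the tested members and the tested genes of 4 marker lists, 1 point per gene with a bar at the list median. The members spread from Klra17 at 0.287, among the plasma cell and J558 genes, to Cd96 at 22.3, within the range of the T cell genes.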

How the data were processed

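RNA-seq counts from 4 J558 allograft tumours, 2 per group, were analysed. The authors deposited raw counts per gene for each library, made with featureCounts (version and strand setting not given in the sources used here) from uniquely placed reads. The submitters' processing notes name STAR 2.6.1c and mm10. The other deposited column, the exon length in bases, was used for levels per kb. Genes were filtered with filterByExpr (minimum count 10; 13669 of 24421 kept), scaled by TMM and compared with the robust quasi-likelihood test of edgeR 4.0.16 (R 4.3.3, two-sided, treatment as the only term) with Benjamini-Hochberg adjustment over all tested genes at 0.05. DESeq2 1.42.0, limma-voom (limma 3.58.1), other scalings and filters, a replicate block and leaving out each library were alternatives. The test was also run on simulated counts with 200 changed genes and the same spread in both groups. In these data the TAK-931 libraries differed more than the vehicle libraries, so that run does not show how the test performs here.

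The members and gene lists were chosen with earlier results of these data known. Members over 3 counts in a library were described with their values. Of each partner list, the 2 genes of lowest p and the 1 of highest mean CPM were named, and others (H2-T23, Fcer1g, Trap1a, Siglech, Pacsin1, Ccr9, Cd14, H2-D1, Pvr, Pvrl2, Pvrl3, Ptpn11, Gata3, Txk, Itga1, Cd6, Pax5, Ms4a1 and Cr2) were chosen after their values were seen. Promoters came from RefSeq. Total counts per library were between 16487902 and 19589339, and a difference under a few CPM was limited by depth for the rarest members. With 2 against 2, an exact test cannot go below p = 0.333. The labels describe the libraries of a group as independent samples and the study follows individual mice, so each library was taken as 1 tumour, and the p-values measure the spread between these libraries.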

Additional observations from a re-analysis of the deposited data

How the results depend on the processing

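Over all tested genes, the deviations of the same-numbered libraries had a correlation of 0.00409. Most tested members, however, were higher in Vehicle-1 than in Vehicle-2, all but Cd244, Klra17 and Hcst. Most were also higher in TAK-931-1 than in TAK-931-2, all but Klrg2, Klra7 and Klra17. A correlation over all genes therefore cannot decide whether the numbers pair the libraries. A fit with the replicate block called 144 genes, 4 of them members (Cd226, Klrg1, Klrd1 and Klrc1, all higher, background 1.03%), against 0 without it. All 4 had under 10 counts in a vehicle library. DESeq2 called 1411 genes and 10 members, with 1 member left without an adjusted p. Of those 10, Tyrobp alone had at least 10 counts in both vehicle libraries. limma-voom gave 6 members at an unadjusted p under 0.05 (5.72% of all genes higher) instead of 12 (11.6%). With at least 10 counts in every library, 7 members were tested, 1 had an unadjusted p under 0.05 and their median log2 fold change was 1.34, against 2.92 for the 21 (0.02 over all genes).

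Leaving out 1 library moved the number of genes called between 0 and 8305 (3902 without TAK-931-1, 8305 without TAK-931-2), of members called between 0 and 16 (8 without TAK-931-1, 16 without TAK-931-2), of members at an unadjusted p under 0.05 between 7 (without Vehicle-2, 5.76% of all genes higher) and 18 (17 higher and Klra17 lower, without TAK-931-2, 32.4% of all genes higher), and the members' median log2 fold change between 2.09 and 3.99. With 1 library left in a group, its spread is assumed to equal that of the other group. The log2 fold change of Klrg2 was -0.08 and ranged from -0.92 to 0.46, with 0.03 when Vehicle-1 and 0.46 when TAK-931-1 was the library left out. That of Klra17 was 0.46 and ranged from -0.69 without TAK-931-2 to 1.09 without TAK-931-1. The cause was not tested. No other member turned its direction under the alternatives run. Depth limits members under 10 counts per vehicle library, 14 of the 21.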
